A study of Mus musculus with 16 samples.

Results

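The genes that encode translation initiation and elongation factors were followed in mouse hearts that had received a control virus or a virus carrying Cardinal. Every protein-coding gene whose mouse symbol starts with Eif or Eef was taken, which gave 69 of the 21980 protein-coding genes of the count table. Of these, 66 had at least 10 counts in at least 4 mice, and all 66 had at least 10 counts in each of the 16 mice. The other 3 were Eef1akmt3, a methyltransferase that acts on eEF1A, with 0 to 8 counts per mouse, Eif4ebp3, a cap-dependent repressor, with 1 to 6 counts, and Eif4e1b, a cap-binding protein known from oocytes, with 0 counts in all 16 mice. They were not tested, and a further 11 genes with such symbols were not protein-coding and were left out.

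Cardinal is a long noncoding RNA of heart muscle that the study connects to protein synthesis, so the question asked of these genes is whether their mRNAs change with pressure overload and with Cardinal. Wild-type pups received AAV9 by subcutaneous injection on postnatal day 1, with GFP or Cardinal under the cardiac troponin T promoter, which drives expression in cardiomyocytes. As adults of 25 to 30 g, whose age the labels do not give, they underwent transverse aortic constriction (TAC), a narrowing of the aorta that makes the left ventricle pump against a higher pressure, or a sham operation without the ligature. RNA was taken from the apex of the heart 4 weeks later, from 4 male mice for each combination of virus and surgery. Within a group the mice are named by the number in their label, and p-values measure the spread between these mice.

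Translation starts when a small ribosomal subunit loaded with initiator tRNA is brought to the capped end of an mRNA and scans to the start codon. The eIF4 factors recognize the cap and unwind the mRNA, eIF3 holds the complex together, eIF2 delivers the initiator tRNA, and eIF1, eIF1A, eIF5 and eIF5B select the start codon and join the subunits. During elongation, eEF1A brings each aminoacyl-tRNA to the ribosome, the eEF1B complex recharges eEF1A with GTP, and eEF2 moves the ribosome forward. Heart and skeletal muscle are known to use eEF1A2, whose gene Eef1a2 takes over from Eef1a1 after birth.

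Several of these factors come as close paralogs, and 50-base reads can tell them apart only where their sequences differ. The most alike 50-base stretches of the coding sequences follow for the pairs on which the results turn, from GENCODE M21 on GRCm38, 5′ to 3′ in the sense of the mRNA, with capitals at the bases that differ within a pair. Eef1a1 and Eef1a2 are compared at chr9:78480147-78480288 and chr2:181153079-181153698, both minus strand and both across the junction of exons 3 and 4, so these spans include an intron.
Eef1a1: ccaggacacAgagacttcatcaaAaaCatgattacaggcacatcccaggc
Eef1a2: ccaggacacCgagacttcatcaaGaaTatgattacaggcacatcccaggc
Eif4a1 and Eif4a2 are compared in exon 6 of each, at chr11:69668677-69668726 on the minus strand and chr16:23110261-23110310 on the plus strand.
Eif4a1: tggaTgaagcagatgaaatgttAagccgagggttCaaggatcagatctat
Eif4a2: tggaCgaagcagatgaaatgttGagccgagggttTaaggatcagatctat
Eif4ebp1 and Eif4ebp2 are compared in exon 1 of each, at chr8:27260501-27260550 on the plus strand and chr10:61452402-61452451 on the minus strand.
Eif4ebp1: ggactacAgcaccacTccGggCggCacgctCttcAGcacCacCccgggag
Eif4ebp2: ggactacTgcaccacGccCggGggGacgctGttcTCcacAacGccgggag

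The closest stretches thus differ at 3 bases for Eef1a1 and Eef1a2, at 3 bases for Eif4a1 and Eif4a2 and at 10 bases for Eif4ebp1 and Eif4ebp2, and 0 of the 1337 coding stretches of Eef1a1 are identical in Eef1a2. The exception among the factors is the Eif3j1 and Eif3j2 pair, which encodes eIF3 subunit j, since 732 of the 734 coding stretches of Eif3j1 also occur in Eif3j2. Copies outside the list matter too. Of all 50-base stretches of Eef1a1 transcripts 40.4% are also present in other genes, including 14 processed pseudogenes, while 0% of those of Eef1a2 are. For Eef1g the share is 44.2% and for Eif4a1 28.4%, also with pseudogenes. How reads that match several places were counted is not given in the sources used here, so the levels of these genes are uncertain.

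The deposited values are raw read counts per gene, with 16441997 to 21904589 counts per mouse. They are given here as CPM, counts relative to the library size after the TMM correction in edgeR, and levels of different genes are compared only as CPM per kb of the longest protein-coding transcript. At this depth 3 counts equal 0.137 to 0.182 CPM, which covers counting error only. Gm12295, the mouse Cardinal gene, was at 31.0 ± 6.25 CPM (SD, n = 4) in AAV9-Cardinal sham hearts and at 4.77 ± 1.03 CPM in AAV9-GFP sham hearts. In AAV9-Cardinal TAC hearts it was at 93.9 CPM in mouse 1 and at 18.3 to 20.6 CPM in the other 3 mice. The tissue check found 7 of 7 cardiomyocyte markers in every group, with summed levels of 33298 to 46517 CPM, and 3 atrial markers summing to at most 2.40 CPM per mouse.

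Per kb of transcript, 3 elongation factor genes were the most abundant of the 66 and the eIF2alpha kinases were among the least abundant. Eef1a2 led at 444 CPM per kb as the mean of 16 mice, followed by Eef2 at 248 and Eef1a1 at 140.4. Next came Eif5a, which encodes a factor that helps ribosomes over difficult peptide bonds, at 115 CPM per kb, and Eif1 at 113 CPM per kb. Within initiation, the highest level of each group was held by Eif4g2, a cap-independent relative of the eIF4G scaffold, at 88.6 CPM per kb, by the eIF3 subunit gene Eif3h at 73.9, by Eif2s3y, the Y-linked gene of eIF2 subunit gamma, at 23.5, by Eif4ebp1 at 19.6 and by Eif2b5, the catalytic subunit of eIF2B, at 12.7. The 4 eIF2alpha kinases lay between 1.34 CPM per kb for Eif2ak4 (GCN2) and 7.33 CPM per kb for Eif2ak1 (HRI), and the lowest tested gene was Eif5a2 at 0.495 CPM per kb. Summed over all members, the level was 5756.7 to 6314.4 CPM per mouse.

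**Figure D1:**
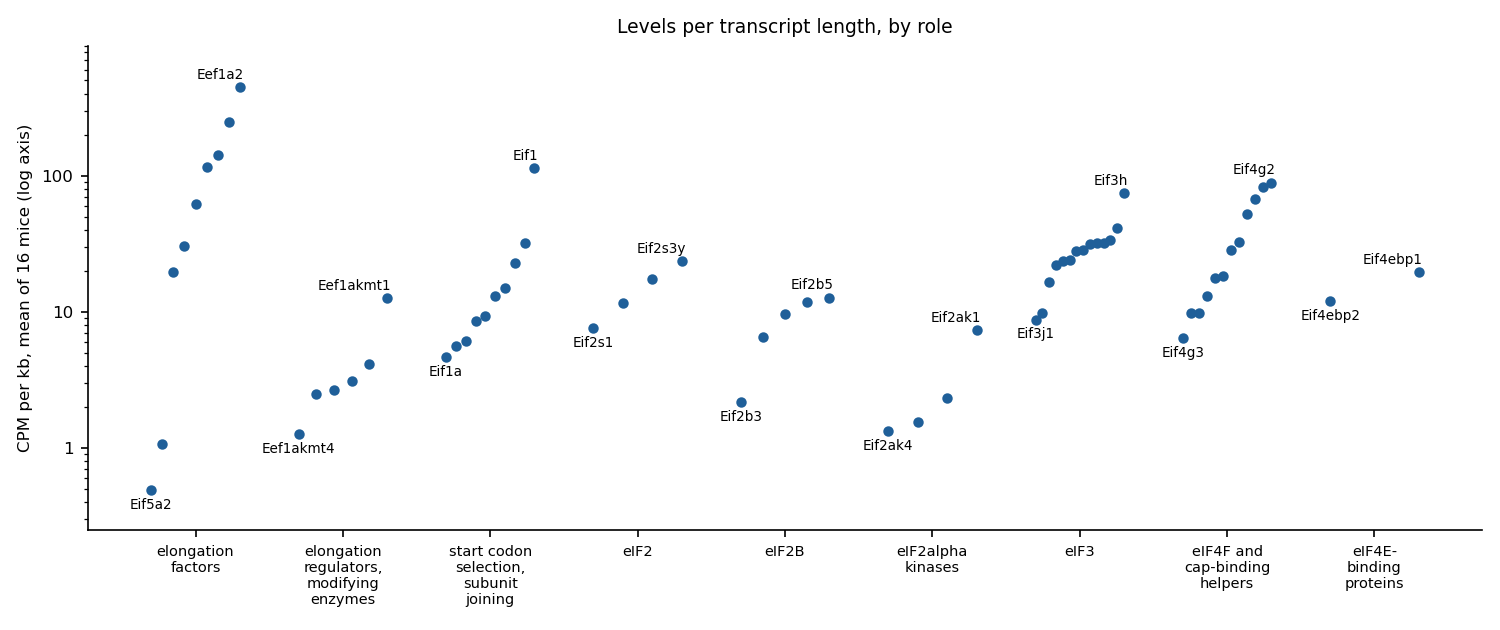
Level of each of the 66 tested genes in CPM per kb of transcript (log axis, mean of 16 mice), by role, with the highest and the lowest gene of each role named. The points run from 0.495 CPM per kb for Eif5a2 to 444 CPM per kb for Eef1a2.

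Eef1a2 and Eef1a1 encode the same elongation factor in its muscle and its general form. Eef1a2 was at 930.4, 941, 965 and 929 CPM in AAV9-GFP sham hearts and at 802, 885, 950.0 and 938 CPM in AAV9-GFP TAC hearts. In AAV9-Cardinal hearts it was at 929, 892, 807 and 978 CPM after sham surgery and at 929, 969, 944 and 1008 CPM after TAC. The groups overlapped, and no comparison of Eef1a2 passed the test across all genes. Eef1a1 was at 243, 237, 236 and 249.6 CPM in AAV9-GFP sham hearts and at 259, 304, 259.8 and 297 CPM after TAC, so every TAC mouse was above every sham mouse. With AAV9-Cardinal it was at 247, 233, 234 and 222 CPM after sham surgery and at 269, 243, 255 and 243 CPM after TAC, where the groups overlapped. In AAV9-GFP hearts Eef1a1 rose after TAC by 0.21 on the log2 scale (standard error 0.057), with adjusted p = 0.0172 by the quasi-likelihood test of edgeR and Benjamini-Hochberg adjustment. In AAV9-Cardinal hearts its log2 difference was 0.11 (standard error 0.057, adjusted p = 0.284), and the difference between these responses was −0.10 (standard error 0.081, adjusted p = 0.692). The call in AAV9-GFP hearts was lost, at adjusted p of up to 0.0602, without AAV9-GFP sham mouse 3 or AAV9-GFP TAC mouse 3 or 7. It was also lost with only the 8 AAV9-GFP mice in the fit (adjusted p = 0.0535). When AAV9-GFP and AAV9-Cardinal hearts were averaged, Eef1a1 was called higher after TAC. That call was kept in 16 of 16 fits with a mouse left out, at adjusted p of up to 0.0207. With the replicate number as a block in the edgeR fit, the AAV9-GFP and the average call were lost (adjusted p = 0.122 and 0.0833).

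The ratio of Eef1a2 to Eef1a1 counts in the same mouse does not depend on library size. It was 3.83, 3.97, 4.09 and 3.72 in AAV9-GFP sham hearts and 3.09, 2.91, 3.66 and 3.16 in AAV9-GFP TAC hearts, without overlap. With AAV9-Cardinal it was 3.76, 3.83, 3.45 and 4.41 after sham surgery and 3.46, 3.99, 3.70 and 4.15 after TAC, with overlap. The mean log2 ratio was 0.29 lower after TAC in AAV9-GFP hearts (log2 difference −0.29), with an exact two-sided permutation p = 0.0286, the smallest that 4 mice against 4 allow, and p = 0.101 after adjustment over 5 comparisons. The log2 difference after TAC was −0.012 in AAV9-Cardinal hearts (exact permutation p = 0.886). Between the viruses the log2 ratio was 0.26 higher with AAV9-Cardinal in TAC hearts (exact permutation p = 0.0571) and differed by −0.019 in sham hearts (exact permutation p = 0.857). The difference in TAC response was 0.28 (exact permutation p = 0.0608, adjusted p = 0.101). None of the 5 comparisons passed 0.05 after adjustment. A single comparison of 4 mice against 4 could not pass alone even at its smallest p, so this adjusted test cannot decide on the ratio in AAV9-GFP hearts. The size of the ratio itself depended on the pseudogenes, which held 64365 counts in 16 mice against 86827 on Eef1a1. Over all mice it was 2.91 to 4.41 on Eef1a1 alone and 1.69 to 2.50 with the pseudogene counts added to Eef1a1.

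**Figure D2:**
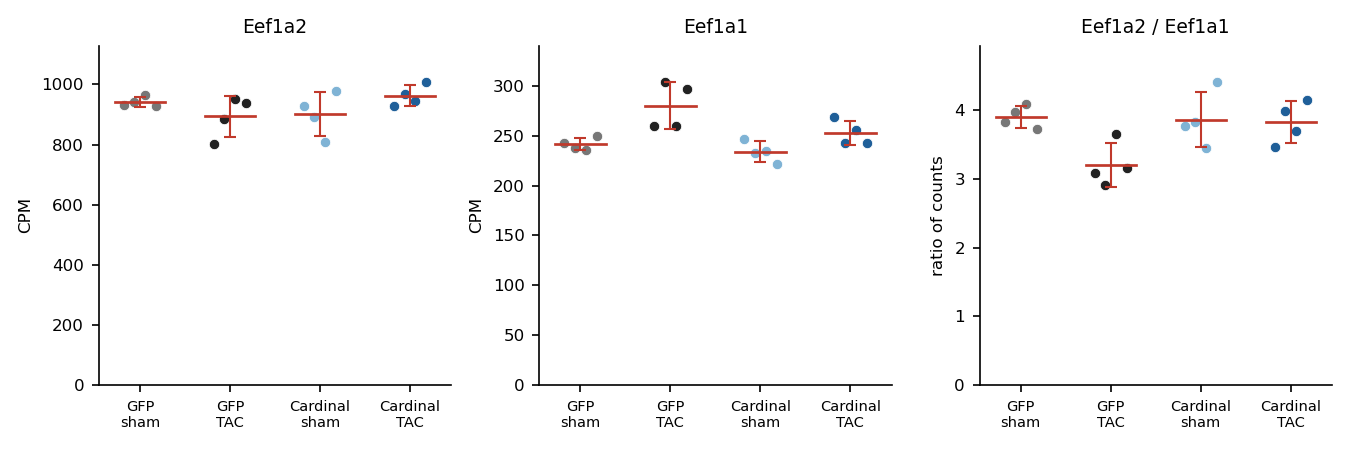
Eef1a2 and Eef1a1 in CPM and the ratio of their counts, by group (points, 4 mice per group; red line and bars, mean and SD). The AAV9-GFP TAC mice have ratios of 2.91 to 3.66, below all AAV9-GFP sham mice at 3.72 to 4.09.

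After TAC in AAV9-GFP hearts, 17 of the 66 factor genes passed an adjusted p of 0.05, 12 of them higher and 5 lower, each by less than 1.5-fold. Over the full set of genes, 17.4% of the 16857 tested genes were called, 8.49% higher and 8.92% lower. The median log2 difference was −0.017 over the 66 genes and 0.0050 over all genes. In RNA from whole tissue, fewer cells of a type and less RNA per cell cannot be told apart. In the same mice the summed level of 7 cardiomyocyte markers was 33298 to 39949 CPM after TAC against 43810 to 46517 CPM after sham surgery, that of 7 fibroblast markers 859 to 1109 against 493 to 554 CPM, and that of 5 endothelial markers 499 to 592 against 424 to 517 CPM. Of the fibroblast markers 4 passed as higher, the collagen genes Col1a1, Col1a2 and Col3a1 and Postn, while Pdgfra, Dcn and Tcf21 did not pass. Of the endothelial markers 2 passed as higher, as did 1 of 4 smooth muscle markers, and 6 of the 7 cardiomyocyte markers passed as lower. The part of other cell types in the changes of the factor genes was not tested. Mitochondrially encoded genes held 30.3 to 31.0% of counts after TAC against 32.8 to 34.0% after sham surgery, and without them 17 members passed, the same 17.

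The split between higher and lower depended on the scaling. Library totals without the TMM correction raised the median of all genes in AAV9-GFP TAC hearts to a log2 difference of 0.16 and gave 31 members higher and 0 lower among the called, beside 29.1% of all genes called, so the directions given here are relative to the other genes of the heart. The same scaling moved the median of all genes to 0.10 for the average TAC effect, to −0.098 between the viruses in TAC hearts and to −0.13 for the difference in response. Without AAV9-GFP TAC mouse 3 the number of members called was 5, a smaller share of the 66 than the 11.5% of all genes called in that fit. Without AAV9-GFP sham mouse 1, 2 or 3 or AAV9-GFP TAC mouse 7 it was 7 to 9, beside 13.0 to 13.7% of all genes. Of the 17 calls, those of Eif4a1, Eif4ebp2, Eef1g and Eef2 were kept with any single mouse left out, and each of the other 13 was lost in 1 to 13 of the 16 such fits. Every TAC mouse lay above every sham mouse for 14 members and below for 9, where this held for 10.1% and 10.2% of all genes.

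In AAV9-Cardinal hearts, 4 of the 66 genes passed after TAC, 3 higher and 1 lower, where 6.48% of all genes were called (3.1% higher and 3.38% lower). The 3 higher include both Eif3j1 and Eif3j2, whose counts cannot be told apart over most of the coding sequence. The mice did not overlap for 5 members that were higher and 4 that were lower, beside 6.51% and 7.21% of all genes. The number called was 1 or 2 without any single one of the sham mice of this virus, without its TAC mouse 4, 5 or 6, and without sham mouse 2 or 3 or TAC mouse 4 of AAV9-GFP, beside 2.25 to 5.43% of all genes. The summed cardiomyocyte markers were 39915 to 44063 CPM after TAC and 42070 to 46387 CPM after sham surgery. The fibroblast markers were 500 to 931 CPM after TAC, with the highest value in mouse 1, and 480 to 529 CPM after sham surgery. Over both viruses the average TAC effect passed for 20 genes, 13 higher and 7 lower, against 23.1% of all genes (11.3% higher and 11.8% lower). Of these 20, 13 passed with any single mouse left out and 7 with the replicate number as a block in the edgeR fit. With AAV9-Cardinal TAC mouse 1 left out the counts were 3 in AAV9-Cardinal hearts and 15 for the average, beside 8.41% and 23.3% of all genes. With library totals without the TMM correction the average gave 27 members higher and 1 lower, beside 31.1% of all genes called. The average effect passed as higher for 4 of the 5 endothelial, 4 of the 7 fibroblast and 1 of the 4 smooth muscle markers. Of the 7 cardiomyocyte markers, 4 passed as lower and 1 as higher on average. In AAV9-Cardinal hearts 1 cardiomyocyte marker passed as lower and 1 fibroblast marker as higher.

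**Figure D3:**
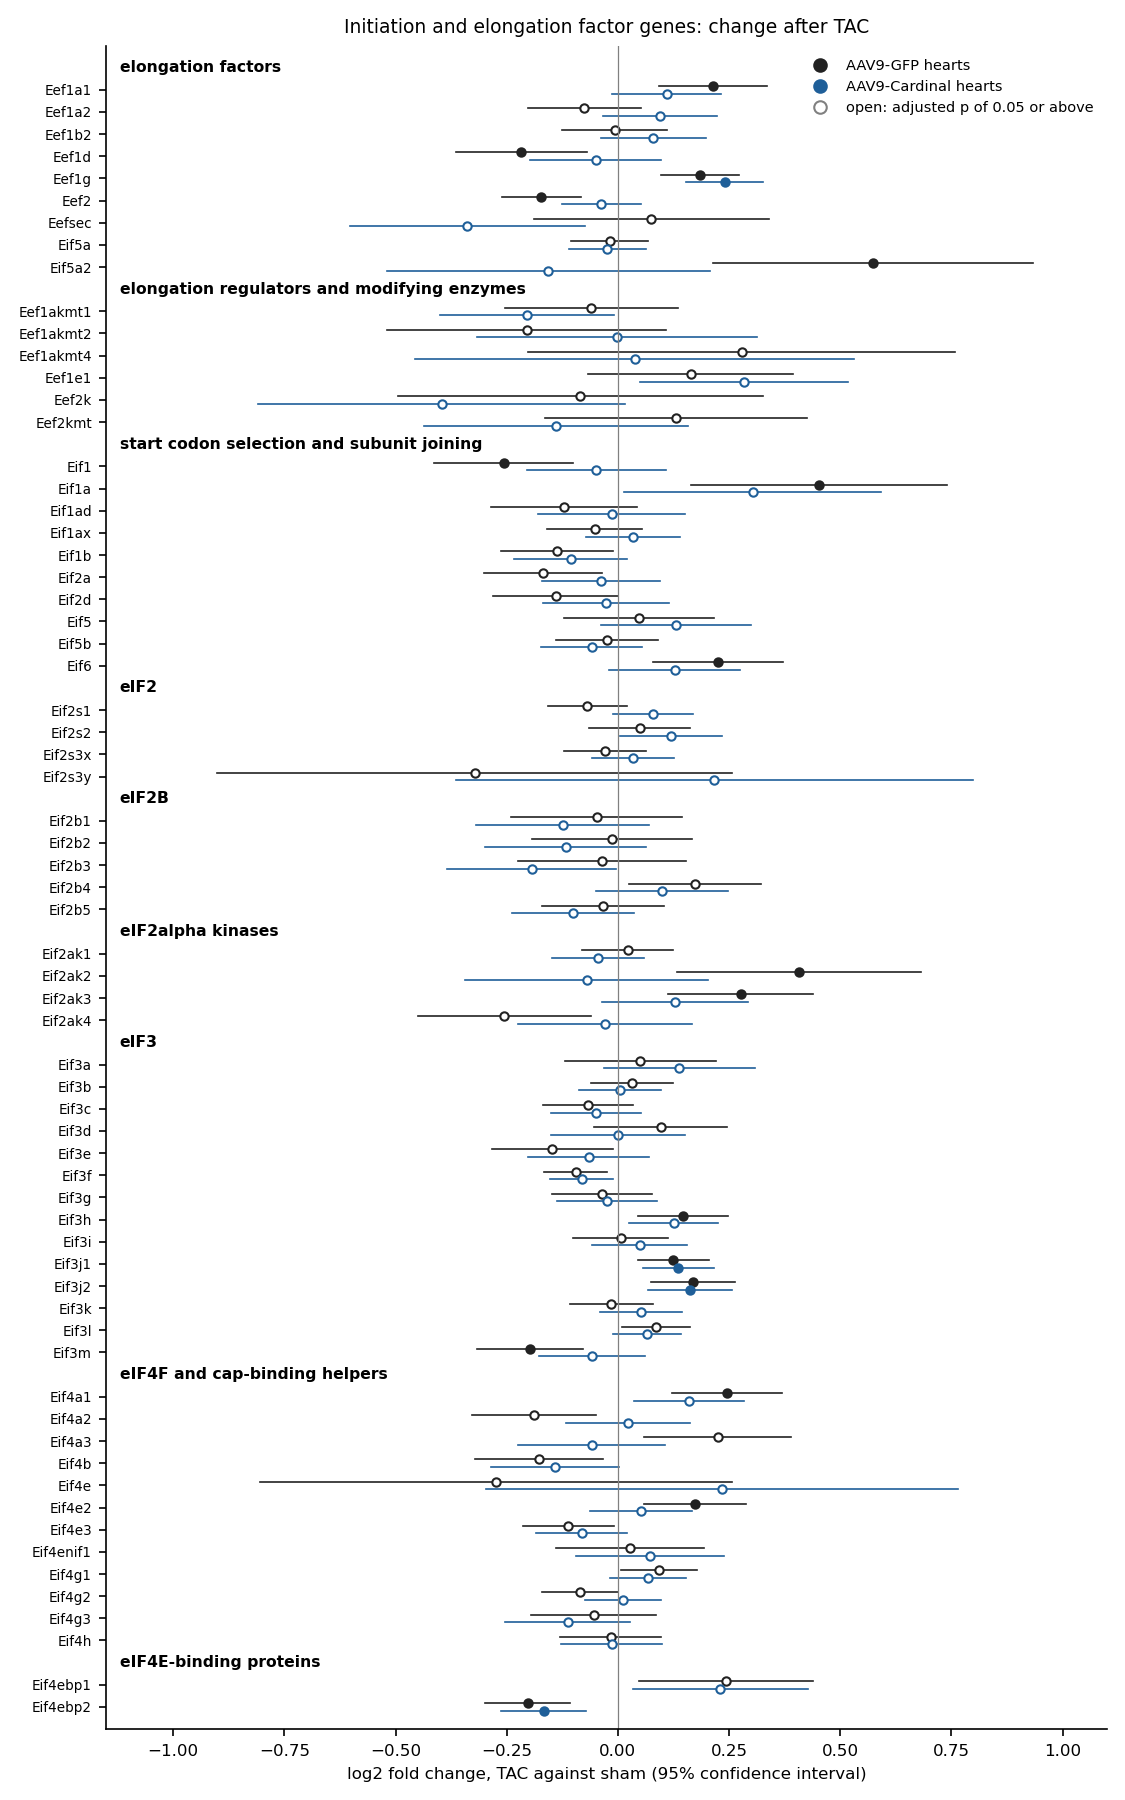
Log2 fold change after TAC for the 66 genes in AAV9-GFP hearts (black) and AAV9-Cardinal hearts (blue), by role, with 95% confidence intervals from edgeR (filled points, adjusted p under 0.05). The filled points are 17 in AAV9-GFP hearts and 4 in AAV9-Cardinal hearts, and the fitted values lie between −0.40 and 0.57.

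Among the 9 elongation factor genes, 3 rose and 2 fell after TAC in AAV9-GFP hearts, 1 rose in AAV9-Cardinal hearts, and 2 rose and 1 fell on average. Eef1g, the gamma subunit of the eEF1B exchange complex, showed the smallest p of all members in each of these comparisons. It was at 108, 102, 106 and 113 CPM in AAV9-GFP sham hearts and at 125, 120.4, 119.6 and 122 CPM after TAC. With AAV9-Cardinal it was at 99.4, 108, 106 and 109.5 CPM after sham surgery and at 129, 123, 123 and 125 CPM after TAC, so TAC mice lay above sham mice with either virus. The log2 difference was 0.18 (standard error 0.041, adjusted p = 0.00569) in AAV9-GFP hearts and 0.24 (standard error 0.041, adjusted p = 0.0046) in AAV9-Cardinal hearts, and it passed with any single mouse left out. With the replicate number as a block in the edgeR fit, both calls were lost (adjusted p = 0.0641 and 0.145). The average call was kept with the block (adjusted p = 0.015).

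Eef2, which encodes the translocation factor, moved the other way in AAV9-GFP hearts. It was at 794, 800.5, 796 and 822 CPM after sham surgery and at 700.4, 673, 714 and 764 CPM after TAC, without overlap. In AAV9-Cardinal hearts it was at 794, 758, 768 and 816 CPM after sham surgery and at 739, 753, 779 and 784 CPM after TAC, with overlap. After TAC with AAV9-GFP, Eef2 fell by 0.17 on the log2 scale (standard error 0.042, adjusted p = 0.0106), against a log2 difference of −0.013 (adjusted p = 0.838) with library totals without the TMM correction. The AAV9-Cardinal value was −0.037 with an adjusted p of 0.677, and the difference in response was 0.13 (standard error 0.059, adjusted p = 0.458).

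Of the remaining elongation factors, Eef1d, another subunit of the exchange complex, was at 62.1, 63.6, 57.4 and 57.2 CPM in AAV9-GFP sham hearts and at 52.9, 49.5, 54.3 and 50.0 CPM after TAC. It fell by 0.22 on the log2 scale (adjusted p = 0.0414), a call kept in 7 of 16 fits with a mouse left out. With library totals without the TMM correction the value was −0.059 (adjusted p = 0.488). Eif5a2, the minor form of eIF5A, was at 1.84, 2.07, 2.16 and 2.1 CPM after sham surgery and at 2.96, 2.94, 2.36 and 3.91 CPM after TAC with AAV9-GFP. It rose by 0.57 (standard error 0.17, adjusted p = 0.0285), the highest log2 difference among the members, from 31 to 90 counts per mouse over the 16 mice, and the call was kept in 10 of 16 fits with a mouse left out. Eefsec, the factor for selenocysteine, was at 3.03, 3.90, 2.88 and 3.31 CPM in AAV9-Cardinal sham hearts and at 2.74, 2.02, 2.79 and 2.81 CPM after TAC, a log2 difference of −0.34 (adjusted p = 0.121) without overlap.

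Among the 6 tested regulators and modifying enzymes of elongation, 0 passed within either virus by edgeR or DESeq2, with 0 at an unadjusted p under 0.05 with AAV9-GFP and 2 with AAV9-Cardinal, and 1 rose on average. This was Eef1e1, a scaffold of the multi-tRNA synthetase complex, with a log2 difference of 0.22 (standard error 0.077, adjusted p = 0.0475) that was kept in 4 of 16 fits with a mouse left out and was 0.0716 as an adjusted p by DESeq2. Eef2k, the kinase that inhibits eEF2, had the lowest fitted value after TAC in AAV9-Cardinal hearts, −0.40 (standard error 0.19, adjusted p = 0.25), with 34.2, 36.1, 24.6 and 28.5 CPM after sham surgery and 31.1, 25.1, 19.0 and 18.6 CPM after TAC. Its mice overlapped between the groups, and its average of −0.24 (adjusted p = 0.232) was the lowest of the members.

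Among the 10 genes of start codon selection and subunit joining, 2 rose and 1 fell after TAC in AAV9-GFP hearts and 2 rose and 2 fell on average. Eif1a, an autosomal gene for eIF1A, was at 10.5, 9.99, 13.0 and 11.3 CPM after sham surgery and at 12.1, 15.4, 17.2 and 16.5 CPM after TAC with AAV9-GFP, and at 10.1, 11.0, 13.3 and 13.4 CPM against 13.9, 12.8, 18.2 and 14.0 CPM with AAV9-Cardinal. The groups overlapped with either virus. On average it rose by 0.38 on the log2 scale (standard error 0.096, adjusted p = 0.00989), the highest average of the members, and this passed with any single mouse left out. Eif1, which keeps the scanning subunit open for inspection of the start codon, was at 157, 160.2, 165 and 159 CPM after sham surgery and at 118, 135, 149.7 and 134 CPM after TAC in AAV9-GFP hearts. It fell by 0.26 (standard error 0.074, adjusted p = 0.025), while its log2 difference was −0.049 in AAV9-Cardinal hearts. The AAV9-GFP call was kept in 11 of 16 fits with a mouse left out and the average call in 3 of 16. With library totals without the TMM correction the AAV9-GFP value was −0.097 (adjusted p = 0.24). The paralog Eif1b passed as lower only for the average, at −0.12 (adjusted p = 0.0489). This call was kept in 4 of 16 fits with a mouse left out, and its adjusted p was 0.0655 by DESeq2 and 0.74 with library totals without the TMM correction. Eif6, which keeps the ribosomal subunits apart until they are ready, rose by 0.23 in AAV9-GFP hearts (adjusted p = 0.0331, by DESeq2 0.0575, kept in 10 of 16 fits with a mouse left out) and by 0.18 on average (adjusted p = 0.0158, kept in 16 of 16). With the replicate number as a block in the edgeR fit, the average calls of Eif1a and Eif6 were lost (adjusted p = 0.0691 and 0.139).

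The 4 genes of eIF2 and the 5 genes of its exchange factor eIF2B gave 0 calls in any comparison with edgeR after the TMM correction or with DESeq2. Before adjustment, the edgeR p was under 0.05 for 1 gene of each on average and after TAC with AAV9-Cardinal. The same held for 1 gene of eIF2B after TAC with AAV9-GFP. It also held for 1 gene of eIF2 between the viruses in TAC hearts and 1 for the difference in response. With library totals without that correction, Eif2b4, Eif2s2 and Eif2s3x were called as higher after TAC in AAV9-GFP hearts, and these 3 and Eif2s1 on average. Without AAV9-Cardinal sham mouse 4, Eif2s2 was called in AAV9-Cardinal hearts, and Eif2s2 and Eif2b4 on average. Eif2s2, eIF2 subunit beta and the most counted gene of eIF2, had an average log2 difference of 0.084 (adjusted p = 0.127), and Eif2b5 one of −0.067 (adjusted p = 0.326). Of the 4 kinases that phosphorylate eIF2alpha and so lower initiation, 2 rose after TAC in AAV9-GFP hearts. Eif2ak2 (PKR), the kinase activated by double-stranded RNA, was at 8.28, 8.79, 8.38 and 8.75 CPM after sham surgery and at 14.0, 11.7, 9.54 and 10.1 CPM after TAC, without overlap. Eif2ak2 rose by 0.41 (standard error 0.13, adjusted p = 0.0405), and the call was kept in 7 of 16 fits with a mouse left out. With AAV9-Cardinal, Eif2ak2 was at 11.6, 9.39, 11.0 and 10.5 CPM after sham surgery and at 12.7, 8.69, 10.2 and 8.84 CPM after TAC. Eif2ak3 (PERK), the kinase of the endoplasmic reticulum stress response, was at 6.10, 6.20, 6.61 and 6.79 CPM after sham surgery and at 7.37, 8.01, 7.35 and 8.39 CPM after TAC with AAV9-GFP. It rose by 0.28 there (standard error 0.076, adjusted p = 0.0211, by DESeq2 0.0713) and by 0.20 on average (adjusted p = 0.0136).

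The 14 eIF3 genes were split, with 3 higher and 1 lower after TAC in AAV9-GFP hearts, 2 higher in AAV9-Cardinal hearts, and 4 higher and 2 lower on average. Eif3j1 was at 43.8, 44.3, 45.8 and 46.8 CPM in AAV9-GFP sham hearts and at 49.1, 50.1, 49.8 and 48.0 CPM after TAC. With AAV9-Cardinal it was at 44.2, 46.7, 45.5 and 46.3 CPM after sham surgery and at 48.4, 51.0, 50.9 and 50.5 CPM after TAC, so TAC and sham mice did not overlap with either virus. It rose by 0.12 (adjusted p = 0.0325) and by 0.14 (adjusted p = 0.0456), and by 0.13 on average (standard error 0.027, adjusted p = 0.00249). Eif3j2 also rose with either virus, by 0.17 (adjusted p = 0.016) and 0.16 (adjusted p = 0.0442), but its counts cannot be told apart from those of Eif3j1 over most of the coding sequence. The ratio of Eif3j1 to Eif3j2 counts was 1.94 to 2.12 in all 16 mice. Without single mice the AAV9-Cardinal calls of Eif3j1 and Eif3j2 were each kept in 4 of 16 fits, and those for the average in all 16. The AAV9-GFP call of Eif3j1 was kept in 11 of 16 fits, and the calls of Eif3j1 within either virus were lost without the filter on low counts, with only the 8 mice compared and with an offset for GC content and length.

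Eif3h rose by 0.15 in AAV9-GFP hearts (adjusted p = 0.0437, kept in 3 of 16 fits with a mouse left out) and by 0.14 on average (adjusted p = 0.0081, kept in 16 of 16). Both calls of Eif3h were lost with the replicate number as a block in the edgeR fit (adjusted p = 0.161 and 0.11). Eif3m was at 42.8, 39.9, 45.5 and 43.0 CPM after sham surgery and at 36.0, 37.7, 39.9 and 35.8 CPM after TAC with AAV9-GFP. It fell by 0.20 on the log2 scale (adjusted p = 0.0237, kept in 11 of 16 fits with a mouse left out) and on average by 0.13 (adjusted p = 0.029, kept in 10 of 16). With library totals without the TMM correction the values were −0.038 (adjusted p = 0.641) and −0.032 (adjusted p = 0.583). On average Eif3f also fell, by 0.088 (adjusted p = 0.0139), and Eif3l rose, by 0.075 (adjusted p = 0.0443), but with library totals without the TMM correction the Eif3f value was 0.0091, the opposite sign. The call of Eif3l was kept in 3 of 16 fits with a mouse left out, and its adjusted p was 0.0746 by DESeq2. Eif3a, the large scaffold subunit with the highest mean CPM of the complex, differed by 0.051 in AAV9-GFP hearts and by 0.14 in AAV9-Cardinal hearts, neither passing the test.

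Of 12 tested genes of the cap-binding complex and its helpers, 2 rose after TAC in AAV9-GFP hearts, 0 were called by edgeR or DESeq2 in AAV9-Cardinal hearts (1 at an unadjusted p under 0.05), and 2 rose and 1 fell on average. Eif4a1, the RNA helicase of the complex, was at 81.4, 87.4, 85.6 and 88.3 CPM in AAV9-GFP sham hearts and at 103, 106, 107 and 90.6 CPM after TAC, without overlap. With AAV9-Cardinal it was at 81.6, 83.6, 88.4 and 91.1 CPM after sham surgery and at 98.1, 88.9, 98.3 and 99.9 CPM after TAC, where 1 TAC mouse lay below the highest sham mouse. It rose by 0.25 in AAV9-GFP hearts (standard error 0.058, adjusted p = 0.00881) and had a log2 difference of 0.16 in AAV9-Cardinal hearts (adjusted p = 0.116). Its paralog Eif4a2, at 216, 224, 242 and 245 CPM after sham surgery and 202, 188, 204 and 218 CPM after TAC with AAV9-GFP, differed by −0.19 (adjusted p = 0.0611, by DESeq2 0.0395). The count ratio of Eif4a1 to Eif4a2 was 0.354 to 0.390 in AAV9-GFP sham hearts and 0.415 to 0.564 in AAV9-GFP TAC hearts, and 0.362 to 0.410 and 0.368 to 0.452 in the AAV9-Cardinal groups. This ratio was computed after the values had been seen and was not tested.

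Eif4e2, a cap-binding relative that represses translation, rose by 0.17 in AAV9-GFP hearts (adjusted p = 0.0362) and by 0.11 on average (adjusted p = 0.0444, kept in 5 of 16 fits with a mouse left out). Eif4b, which stimulates the helicase, fell by 0.16 on average (adjusted p = 0.0247, kept in 12 of 16 fits with a mouse left out). With library totals without the TMM correction this value was −0.062 (adjusted p = 0.313). Eif4g2, the member of this group with the highest level, was at 715, 691, 731 and 750.0 CPM in AAV9-GFP sham hearts and at 680.0, 639, 697 and 704 CPM after TAC, a log2 difference of −0.085 (adjusted p = 0.167).

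The eIF4E-binding proteins block assembly of the cap-binding complex until mTOR phosphorylates them, and the levels of their mRNAs do not show that phosphorylation. Eif4ebp1 was at 38.1, 36.9, 38.7 and 34.1 CPM in AAV9-GFP sham hearts and at 37.2, 39.5, 48.8 and 49.5 CPM after TAC. In AAV9-Cardinal hearts it was at 34.3, 35.4, 35.1 and 34.3 CPM after sham surgery and at 36.4, 41.7, 46.6 and 38.4 CPM after TAC. The TAC mice spread widely with both viruses, and overlapped with sham mice only with AAV9-GFP. The log2 difference was 0.24 in AAV9-GFP hearts (standard error 0.092, adjusted p = 0.0834) and 0.23 in AAV9-Cardinal hearts (standard error 0.092, adjusted p = 0.154, exact two-sided permutation p = 0.0286). Neither passed, but on average Eif4ebp1 rose by 0.24 (standard error 0.065, adjusted p = 0.0156), and the difference between the responses was −0.013 (standard error 0.13). The AAV9-GFP value passed without AAV9-GFP TAC mouse 1 (0.32, adjusted p = 0.0207) and with library totals without the TMM correction (0.40, adjusted p = 0.00361).

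Eif4ebp2 changed in the opposite direction. It was at 74.6, 71.2, 67.4 and 75.9 CPM in AAV9-GFP sham hearts and at 63.8, 60.9, 61.3 and 65.1 CPM after TAC. With AAV9-Cardinal it was at 73.6, 73.4, 79.3 and 76.4 CPM after sham surgery and at 64.9, 68.8, 68.0 and 67.8 CPM after TAC, again without overlap. It fell by 0.20 (standard error 0.045, adjusted p = 0.00599) with AAV9-GFP, by 0.17 (standard error 0.045, adjusted p = 0.0413) with AAV9-Cardinal, and by 0.18 on average (standard error 0.032, adjusted p = 0.000719). With library totals without the TMM correction the AAV9-GFP value was −0.044 (adjusted p = 0.495) and the average −0.088 (adjusted p = 0.0489). The AAV9-Cardinal call was kept in 6 of 16 fits with a mouse left out, the other two in all 16.

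**Figure D4:**
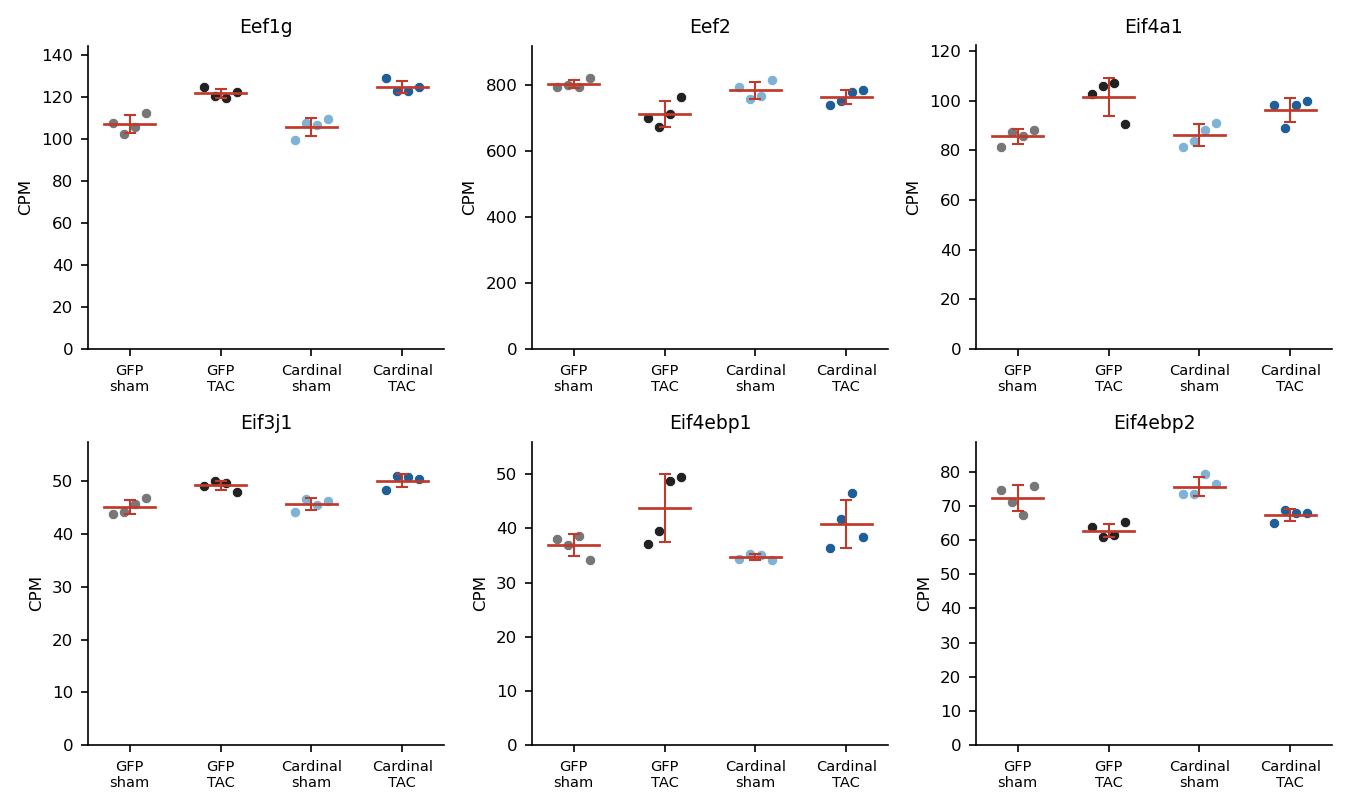
CPM of 6 members in each mouse by group (points, 4 mice per group; red line and bars, mean and SD). Eef1g, Eif3j1 and Eif4ebp2 show TAC mice apart from sham mice with both viruses, while Eef2 and Eif4a1 do so with AAV9-GFP and overlap with AAV9-Cardinal.

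Between AAV9-Cardinal and AAV9-GFP, 0 of the 66 genes passed in TAC hearts and 0 in sham hearts, by edgeR or DESeq2, where 0.101% and 0.0119% of all genes were called by edgeR and 2.54% and 0.0237% by DESeq2. Without AAV9-Cardinal TAC mouse 1, edgeR called 3.13% of all genes in TAC hearts and still 0 of the 66. Before adjustment, 12 members in TAC hearts and 1 in sham hearts had p under 0.05, as did 15% and 2.59% of all genes. In TAC hearts the mice did not overlap for Eif4g2, higher with AAV9-Cardinal as were 3.58% of all genes, and for Eif4e2, lower as were 3.19%. In sham hearts this held for Eif2ak2, higher (1.2% of all genes), and Eif3l, lower (1.16%). The median log2 difference over the members was 0.00058 in TAC hearts and −0.017 in sham hearts, beside −0.0065 and −9.8e-05 over all genes. The 95% confidence intervals of single genes in TAC hearts, before adjustment for the number of genes, reached 0.14 on the log2 scale to either side as a median.

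In TAC hearts the lowest adjusted p was that of Eif4a2, 0.203, with a log2 difference of 0.19 (standard error 0.066), from 202, 188, 204 and 218 CPM with AAV9-GFP to 217, 241, 237 and 229 CPM with AAV9-Cardinal. The largest differences were −0.40 for Eif5a2 (adjusted p = 0.272) and 0.28 for Eif4e (adjusted p = 0.664). The 3 genes followed throughout gave −0.15 for Eef1a1 (95% interval −0.27 to −0.029, adjusted p = 0.229), 0.11 for Eef1a2 (−0.021 to 0.23, adjusted p = 0.428) and −0.10 for Eif4ebp1 (−0.30 to 0.094, adjusted p = 0.668). In sham hearts the fitted differences ran from −0.30 for Eif2s3y to 0.33 for Eif5a2, and Eif2ak2 differed by 0.31 (standard error 0.13), all with an adjusted p of 1.

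The difference in TAC response between the viruses passed for 0 of 66 genes by edgeR or DESeq2, with 0.0119% of all genes called by edgeR and 0.813% by DESeq2. Without AAV9-Cardinal TAC mouse 1 the edgeR share was 0.463%, again with 0 members. Before adjustment 7 members had p under 0.05, as did 10.2% of all genes. It was most positive for Eif2s3y, at 0.54 (standard error 0.39, adjusted p = 0.663), and most negative for Eif5a2, at −0.73 (standard error 0.24, adjusted p = 0.35, exact two-sided permutation p = 0.00653). With AAV9-Cardinal this gene was at 3.52, 2.42, 2.26 and 2.01 CPM after sham surgery and at 2.26, 2.40, 2.14 and 2.44 CPM after TAC. So for no single member was the TAC response shown to differ between the viruses.

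Eif4e and Eif2s3y each had single mice far below the other mice. Eif4e, the cap-binding protein itself, was at 29.4 CPM in AAV9-GFP TAC mouse 4 and at 31.8 CPM in AAV9-Cardinal sham mouse 1, and at 63.4 to 76.1 CPM in the other 14 mice. Eif2s3y was at 21.1 CPM in AAV9-GFP TAC mouse 7, at 19.8 CPM in AAV9-Cardinal sham mouse 1 and at 36.0 to 56.1 CPM in the others. Its X-linked paralog Eif2s3x, which encodes the same subunit, was between 39.2 and 43.9 CPM in all 16 mice. After TAC with AAV9-GFP the log2 difference was −0.32 for Eif2s3y (standard error 0.27, adjusted p = 0.478) and −0.27 for Eif4e (standard error 0.25, adjusted p = 0.515).

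**Figure D5:**
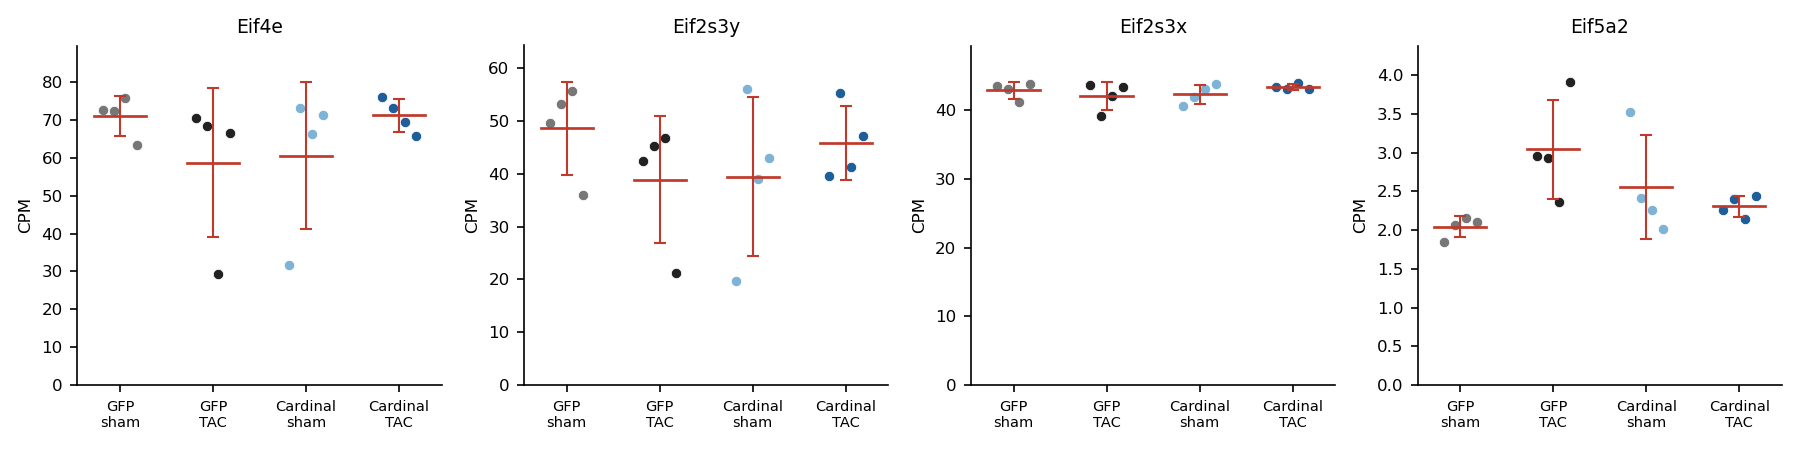
CPM of Eif4e, Eif2s3y, Eif2s3x and Eif5a2 in each mouse by group (points, 4 mice per group; red line and bars, mean and SD). Single mice lie far below their group for Eif4e (29.4 and 31.8 CPM) and Eif2s3y (21.1 and 19.8 CPM), while Eif2s3x stays between 39.2 and 43.9 CPM.

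For the setting of these genes, 35 other genes of translation were followed, from poly(A)-binding proteins to mTOR signaling. On average over both viruses 6 rose and 1 fell after TAC, while 3 rose and 2 fell in AAV9-GFP hearts, 1 rose in AAV9-Cardinal hearts, and 0 passed between the viruses by edgeR or DESeq2 (5 in TAC hearts and 0 in sham hearts at an unadjusted p under 0.05). The share called was 20% on average, 14.3% with AAV9-GFP and 2.86% with AAV9-Cardinal, below the 23.1%, 17.4% and 6.48% of all genes, and the list was chosen with results of these data known. The 6 were Pabpc1, which binds poly(A) tails, at 0.34 (adjusted p = 0.000829), Paip1 at 0.14, the release factor gene Etf1 at 0.14, the recycling factor gene Abce1 at 0.18, the eIF4E kinase gene Mknk2 at 0.37 and Drg1 at 0.20 (adjusted p = 0.00166), and Paip2b, which displaces poly(A)-binding protein, fell by 0.22. Drg1 encodes the ribosome-associated GTPase that the study follows. Its log2 difference was 0.22 with AAV9-GFP (adjusted p = 0.0127) and 0.19 with AAV9-Cardinal (adjusted p = 0.0594), and it was −0.0028 between the viruses in TAC hearts (standard error 0.055). Zc3h15, the gene of its partner DFRP1, and Mtor did not pass in any comparison, with average log2 differences of 0.085 and 0.058.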

How the data were processed

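Poly(A)-selected libraries from the heart apex of 16 male mice were sequenced as single-end 50-base reads. What the authors deposited are raw counts of reads for each gene, without normalization. The submitters' processing notes name GRCm38, FastQC, HISAT2 2.1.0 and edgeR 3.26.1 without their roles, and the counting program, annotation, strand and treatment of reads with several matches are not given in the sources used here. Of 55573 genes, 55480 were named with GENCODE M21.

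All 16 mice entered an edgeR 4.0.16 quasi-likelihood fit in R 4.3.3 (TMM, expression filter for 4 groups, 16857 genes), with contrasts between groups and Benjamini-Hochberg adjustment over all tested genes (threshold 0.05). CPM used TMM library sizes, log2 CPM a prior count of 2, and the Eef1a2 to Eef1a1 ratio a pseudocount of 0.5. Exact permutation tests used 70 labelings, or 4900 for the difference in response. Those 4900 permuted the virus labels within sham and within TAC hearts. Their p therefore assumes no effect of the virus after either surgery, and not only equal TAC responses. Genes and role lists were chosen with earlier results of these data known. Named were Eef1a1, Eef1a2, Eif4ebp1, members past the threshold (up to 12 in each direction), the highest member of each role by mean CPM and the largest change in each direction. For the other translation genes, those past the threshold, Drg1, Zc3h15 and Mtor were named. The highest members per kb, Eif2ak4, Eif2s3x, Eefsec, Eif4e and, for TAC, Eif4a2 were named after their values were seen. DESeq2 1.42.0 was a second test. Figures used Python 3.11.15. DESeq2, other filters and scalings, a replicate block and leaving out each mouse were tried as alternatives. For AAV9-GFP TAC against sham, the fit was also tested on simulated data with 200 changed genes, drawn from all tested genes. It called 5.97% of 1.19-fold, 46.3% of 1.5-fold and 78.8% of 2-fold changes, with 6 false calls. In the data 2934 genes were called, so the adjusted threshold was stricter in the simulation. These shares therefore do not give the chance of a call for the 66 genes.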

Additional observations from a re-analysis of the deposited data

Results flagged for a closer look

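In 264 groups of 4 mice (66 genes in 4 groups), 11 held a mouse that stood apart from the other 3 by Dixon's test, where chance gives about 1 in 20 groups, or 13. The most distant in level were Eif4e at 29.4 CPM in AAV9-GFP TAC mouse 4 (others 66.6 to 70.5 CPM) and at 31.8 CPM in AAV9-Cardinal sham mouse 1 (others 66.2 to 73.1 CPM), and Eif2s3y at 21.1 CPM in AAV9-GFP TAC mouse 7 (others 42.5 to 46.8 CPM). Eif4a1 was at 88.9 CPM in AAV9-Cardinal TAC mouse 4 (others 98.1 to 99.9 CPM). In AAV9-GFP sham mouse 3, Eef1akmt2 was low at 2.69 CPM, Eef1e1 high at 6.81 CPM and Eif6 high at 13.0 CPM. In AAV9-Cardinal sham mouse 4, the mouse with the fewest counts, Eif2s2 was high at 47.2 CPM and Eif5b at 131 CPM. In AAV9-Cardinal TAC hearts, Eefsec was low at 2.02 CPM in mouse 4 and Eif3g high at 32.9 CPM in mouse 6.

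For 3 genes every TAC mouse lay on one side of its sham mean with AAV9-GFP and on the other side with AAV9-Cardinal. In each of them the AAV9-Cardinal sham mean was shifted by sham mouse 1, so the pattern rests on this mouse. It had 703 counts of Eif4e against 1099 to 1573 in the other AAV9-Cardinal sham mice. For Eif2s3y it had 438 against 663 to 1207 counts, and for Eif5a2 78 against 31 to 52. The difference in response was 0.54 on the log2 scale for Eif2s3y (standard error 0.39, adjusted p = 0.663 in edgeR), 0.51 for Eif4e (standard error 0.35, adjusted p = 0.648) and −0.73 for Eif5a2 (standard error 0.24, adjusted p = 0.35), so it was tested and did not pass.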

How the results depend on the processing

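The members called after TAC numbered 17 with AAV9-GFP, 4 with AAV9-Cardinal and 20 on average. Without a filter on low counts these were 9, 1 and 14, beside 7.74%, 2.03% and 10.8% of the 30343 genes tested there. With only the 8 mice compared they were 11 and 1, beside 14.3% and 5.54% of all genes. An offset for GC content and length gave 15, 1 and 18, beside 17.3%, 6.42% and 23.6%. Library totals without TMM, added after the data had been seen, gave 31 after TAC in AAV9-GFP hearts. With single mice left out the counts were 5 to 18, 1 to 4 and 14 to 19. The shares of all genes called in these fits were 11.5 to 18%, 2.25 to 8.41% and 19.6 to 24.8%. Of 16 same-numbered pairs from different groups, 4 had a correlation of deviations over 0.1 (range −0.04 to 0.21), and 5 of 16 mice were closest to their own number. Those 4 pairs all joined mice numbered 1, whose pairs ran from 0.067 to 0.211. The replicate block gave 7, 0 and 8 calls, beside 12.4%, 0.184% and 12% of all genes. With AAV9-GFP this was a smaller share of the 66 members than of all genes. The block kept 5 of the 17 calls with AAV9-GFP and 7 of the 20 on average. The calls on average that it lost were those of Eef1a1 (adjusted p = 0.0833), Eif4ebp1 (0.17), Eif1a (0.0691), Eif3h (0.11), Eif3f (0.132), Eif6 (0.139) and Eif2ak3 (0.248). Those of Eef1e1, Eif1b, Eif3l, Eif3m, Eif4b and Eif4e2 were also lost. The counts of 0 between the viruses and for the difference in response stayed 0 in every alternative run. The cause of these shifts was not tested.

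For single genes, 56 results gave 1488 values under the alternatives, of which 1211 kept direction and side of the threshold, 265 lost the call, 2 gained it, both Eif4ebp1 in AAV9-GFP hearts, and 10 changed sign. Those with library totals without TMM were Eef1a2 in AAV9-GFP hearts (0.084) and Eif3f on average (0.0091). The average Eef1a2 value turned to −0.025 with the replicate block and ran from −0.015 to 0.038 with single mice left out, negative without AAV9-Cardinal sham mouse 3 (−0.015) and AAV9-GFP TAC mouse 4 (−0.0026). The Eif4ebp1 difference in response ran from −0.086 to 0.050 with single mice left out, turning positive without AAV9-Cardinal TAC mouse 1 (0.037) or 6 (0.014), AAV9-GFP sham mouse 4 (0.023) and AAV9-GFP TAC mouse 4 (0.044) or 7 (0.050). The log2 ratio of Eef1a2 to Eef1a1 ran with single mice left out from −0.35 to −0.24 after TAC with AAV9-GFP, from −0.065 to 0.054 with AAV9-Cardinal, from 0.21 to 0.32 and from −0.085 to 0.034 between the viruses in TAC and in sham hearts, and from 0.22 to 0.34 for the difference in response. With the pseudogenes added to Eef1a1 its AAV9-Cardinal value was 0.0017.

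Counts were low for Eef1akmt4 (640 over the 16 mice), Eif5a2 (861), Eefsec (988) and Eef1akmt2 (1174). The 95% intervals of a comparison of 4 with 4 mice reached 0.14 on the log2 scale to either side as a median before adjustment, and differences beyond that also failed the adjusted test.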
